A study of Mus musculus with 2 samples.

Results

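Tox and Tox2 encode related DNA-binding proteins of the high-mobility-group box family, and both were followed by their raw UMI counts (unique molecular identifiers, 1 per captured transcript) in donor CD4 T cells from allergic mouse lung. They are 2 of the 32285 genes in the count matrices and were taken by symbol, with no expression value used to choose them. A barcode was taken as a cell if it held 500 UMIs and 250 detected genes or more, with no more than 10% of its UMIs from mitochondrial genes, and predicted doublets were removed. This gave 151 cells from MARCH1-/- hosts and 336 cells from C57BL/6 (WT) hosts. A further 25 barcodes from MARCH1-/- hosts and 72 from WT hosts passed the size limits but exceeded the mitochondrial limit, and they are described separately.

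The donors of both libraries were WT mice sensitized by aspirating house dust mite extract into the airway on day 0 and again on days 7 to 11. Lung CD4 T cells were taken on day 14, stained with the division dye Cell Trace Violet, and transferred into MARCH1-/- or WT mice. The hosts were challenged with the same extract, and on day 4 after challenge the transferred cells that had diluted the dye were sorted from lung. MARCH1 is a ubiquitin ligase that removes MHC class II and the costimulatory ligand CD86 from the surface of antigen-presenting cells, so the genotype differs in the host's cells and not in the sorted T cells. There was 1 library per group, the sources used here do not give the number of mice behind each, and no difference between hosts has a replicate check. Nothing could be tested across animals, so values carry 95% intervals, which cover counting error only.

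TOX is induced in T cells by calcineurin and NFAT signalling downstream of the T cell receptor, together with the NR4A nuclear receptors. It is required for CD4 lineage development in the thymus. In CD8 T cells under chronic stimulation it maintains the exhausted state, with inhibitory receptors such as PD-1 and LAG-3 and low cytokine output, and TOX2 shares part of that role. TOX2 is also known as a partner of BCL6 in follicular helper T cells, the CD4 cells that help B cells in germinal centres.

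The MARCH1-/- host library held 1934068 UMIs and its cells had a median of 8016 UMIs, and the WT host library held 3753437 UMIs with a median of 5821 UMIs per cell. Median mitochondrial shares of the cells were 2.64% in the MARCH1-/- host library and 2.35% in the WT host library, and the libraries shared 0 cell barcodes. All 12 markers of CD4 T cells were detected in both libraries, at a summed 6060 counts per 1e6 UMIs (CPM) in cells from MARCH1-/- hosts and 4510 CPM in cells from WT hosts. Markers of B, NK, myeloid, dendritic, mast and neutrophil cells each summed to under 4 CPM in both. Those of CD8 T cells were at 8.64 CPM in MARCH1-/- hosts and 11.9 CPM in WT hosts, with Cd8a at 0, and epithelial markers at 5.98 CPM and 6.99 CPM. Endothelial and stromal markers were at 47.8 CPM in MARCH1-/- hosts, from 1 of 4 genes, and 41.1 CPM in WT hosts, from 3 of 4. March1 had 0 UMIs in both libraries. The sorted cells came from WT donors, so their March1 counts give no check of the host genotype at any level.

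The Tox level was lower in the MARCH1-/- host library. The gene lies on mouse chromosome 4 from 6686353 to 6991557 on the minus strand (GRCm38, GENCODE M21, ENSMUSG00000041272), a protein-coding gene spanning 305 kb. It had 121 UMIs, or 80.4 CPM (66.7 to 96.1), in cells from MARCH1-/- hosts and 483 UMIs, or 198 CPM (181 to 217), in cells from WT hosts. The intervals did not overlap. The log2 ratio of MARCH1-/- host over WT host was -1.30 (-1.60 to -1.01), which is 2.47-fold lower (2.02 to 3.04). Over all 6616 genes with at least 50 UMIs, 2.92% were at least 2-fold lower and 7.3% at least 2-fold higher in the MARCH1-/- host library, and 115 genes had a lower ratio than Tox. The median gene stood 0.25 higher on the log2 scale in the MARCH1-/- host library, and relative to it the log2 ratio of Tox was -1.56. An antisense gene, Gm11802, overlaps Tox exons on the plus strand, opposite to Tox, and had 9 UMIs in all cells.

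Tox2, by contrast, differed little. It lies on chromosome 2 from 163203125 to 163324170 on the plus strand (ENSMUSG00000074607), is protein-coding and spans 121 kb, with no other annotated gene overlapping it. It had 67 UMIs, or 44.5 CPM (34.5 to 56.5), in cells from MARCH1-/- hosts and 94 UMIs, or 38.6 CPM (31.2 to 47.3), in cells from WT hosts. The log2 ratio was 0.20 (-0.27 to 0.67), and -0.05 relative to the median gene, so its sign depended on the scaling. The interval of the ratio left out the size of the difference seen for Tox. Of the other family members, Tox4, a widely expressed gene, had 69.1 CPM in cells from MARCH1-/- hosts and 71.9 CPM in cells from WT hosts, a log2 ratio of -0.06 (-0.42 to 0.30). Tox3 had 0 UMIs in 151 cells and in 336 cells, which allows, at 3 cells of the total, a share of cells with a UMI of up to 1.99% in the MARCH1-/- host library and 0.893% in the WT host library.

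In single cells, those with several Tox UMIs were a smaller share of the MARCH1-/- host library, while the shares with any Tox UMI had overlapping intervals. At least 1 Tox UMI was seen in 70 of 151 cells (46.4%, 38.2 to 54.6) from MARCH1-/- hosts and 187 of 336 cells (55.7%, 50.2 to 61.0) from WT hosts. At least 2 were seen in 16.6% of cells from MARCH1-/- hosts and 37.8% of cells from WT hosts. At least 4 were seen in 7 cells (4.64%) and 40 cells (11.9%) of the same libraries, and the highest counts in a cell were 8 in the MARCH1-/- host library and 9 in the WT host library. Among cells with a Tox UMI, the median level in the cell was 155 CPM in MARCH1-/- hosts and 321 CPM in WT hosts. Cells with a Tox UMI were deeper than cells without one, at medians of 8324 against 7344 UMIs in the MARCH1-/- host library and 6996 against 4483 UMIs in the WT host library.

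**Figure D1:**
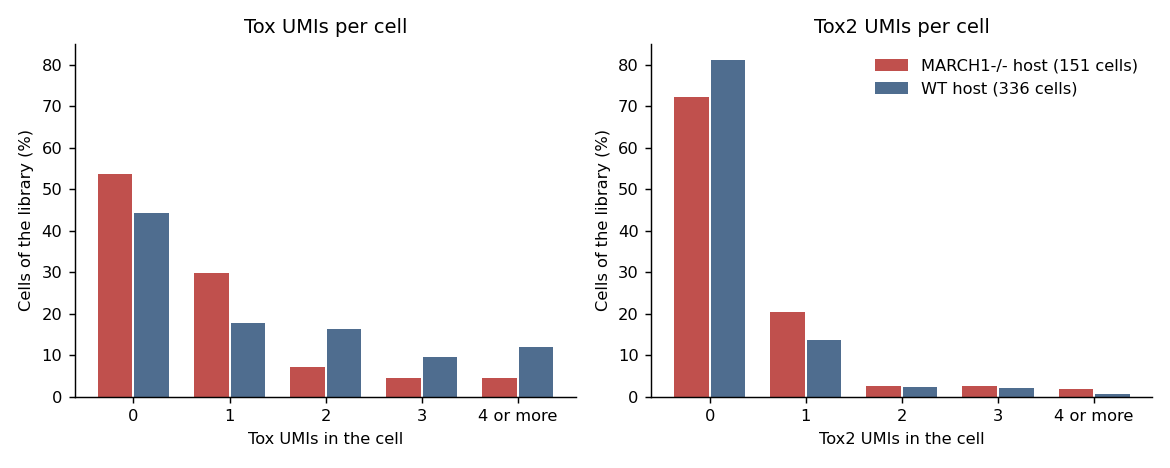
Share of cells (y axis, %) by the number of Tox (left) or Tox2 (right) UMIs in the cell (x axis), for the 151 cells from MARCH1-/- hosts and the 336 cells from WT hosts. Bars for 2, 3 and 4 or more Tox UMIs are lower in the MARCH1-/- host library, at 16.6% of cells in all against 37.8%, while most Tox2-positive cells of both libraries held a single UMI.

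Because the share of cells with a UMI grows with depth, each cell was thinned to 1000 UMIs, which left out 0 cells of the MARCH1-/- host library and 11 of the WT host library. At that depth 14 of 151 cells (9.27%, 5.16 to 15.1) from MARCH1-/- hosts and 70 of 325 cells (21.5%, 17.2 to 26.4) from WT hosts kept a Tox UMI. The shares expected over all draws were 9.09% in the MARCH1-/- host library and 18.7% in the WT host library. For Tox2 the thinned shares were 3.31% in MARCH1-/- hosts and 3.69% in WT hosts, at 7 and 12 UMIs in all, too few to show a difference. As a low reference within the same libraries, cluster 2 (described with the other clusters) was read without thinning. It had a Tox UMI in 0 of 13 cells from MARCH1-/- hosts, at a median of 3771 UMIs per cell. From WT hosts 6 of 55 of its cells (10.9%) had a Tox UMI, at a median of 3410 UMIs. These compare with unthinned shares over all cells, 46.4% in MARCH1-/- hosts and 55.7% in WT hosts, and not with the thinned shares.

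The lower Tox level was seen at every depth, with counts that were sparse in the shallowest cells. Among cells of 3000 to 6000 UMIs, Tox was at 158 CPM in 40 cells from MARCH1-/- hosts and 258 CPM in 126 cells from WT hosts, a log2 ratio of -0.71 (-1.35 to -0.11). Among cells of 6000 to 12000 UMIs it was at 99.4 CPM in MARCH1-/- hosts and 229 CPM in WT hosts, a log2 ratio of -1.20 (-1.65 to -0.77). Above 12000 UMIs it was at 48.7 CPM in MARCH1-/- hosts and 111 CPM in WT hosts, a log2 ratio of -1.18 (-1.78 to -0.61). Below 3000 UMIs the MARCH1-/- host library held 7 cells with 1 Tox UMI in all, against 23 UMIs in 47 cells of the WT host library. In both libraries the deepest cells had the lowest Tox level of the 3 larger bins.

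Clustering both libraries together, with Tox and Tox2 left out, gave 7 clusters, of which cluster 1 was Th2-like by its type 2 helper markers and clusters 4 and 6 were cycling-like. Cluster 4 held 49 cells from WT hosts and cluster 6 held 40 cells from MARCH1-/- hosts, with none of the other library, and clusters 3 and 5 were also of 1 library each. In the WT host library, Tox was highest in the Th2-like cluster at 376 CPM (323 to 434) in 79 cells. It followed at 279 CPM (231 to 335) in cluster 0, an unnamed cluster led by Sdc4, Il17a and Tff1, and the intervals of those 2 neighbours overlapped. Then came cluster 3 at 148 CPM (120 to 181), cycling-like cluster 4 at 107 CPM (83.6 to 134) and cluster 2 at 68.7 CPM (36.6 to 117), each overlapping its neighbour, while cluster 3 lay apart from cluster 0.

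In the MARCH1-/- host library the order was less separated. Cluster 0 had 162 CPM of Tox (103 to 243) in 28 cells, cluster 5 had 105 CPM (75.2 to 142) in 49 cells and the Th2-like cluster had 105 CPM (65.6 to 158) in 21 cells, with overlapping intervals. Cycling-like cluster 6 had 49.2 CPM (34.3 to 68.4), below the interval of cluster 5, and cluster 2 had 0 UMIs in 13 cells. Only clusters 0 and 1 had Tox UMIs in both libraries, and of these the Th2-like cluster 1 held the larger host difference. Tox was there at 105 CPM in MARCH1-/- hosts and 376 CPM in WT hosts, a log2 ratio of -1.84 (-2.55 to -1.20). In cluster 0 the log2 ratio was -0.79 (-1.50 to -0.13). In the cycling-like clusters Tox was at 49.2 CPM in cluster 6 from MARCH1-/- hosts and 107 CPM in cluster 4 from WT hosts, a log2 ratio of -1.11 (-1.74 to -0.52), and over all other cells the log2 ratio was -1.12 (-1.47 to -0.78).

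Cluster 2 was led by Ccl5, Ly6c2, Ifitm1 and Klrk1. In WT hosts it had the lowest value of both genes, while in MARCH1-/- hosts its 0 UMIs of each allowed up to 73.4 CPM, above the level of both genes in cluster 6. Tox2 had 0 UMIs in all of its 13 cells from MARCH1-/- hosts and 55 cells from WT hosts, which allows, at 3 cells of the total, shares of up to 23.1% in MARCH1-/- hosts and 5.45% in WT hosts. Its cells carried Cd3e, and their Cd4, at 179 CPM in MARCH1-/- hosts and 296 CPM in WT hosts, lay within the range of the other clusters, 157 to 632 CPM in MARCH1-/- hosts and 276 to 828 CPM in WT hosts. Cd8a had 0 UMIs in it. Elsewhere Tox2 lay between 28.1 and 99.9 CPM, with the highest values in the Th2-like cluster of MARCH1-/- hosts, at 99.9 CPM (61.8 to 153) from 21 UMIs in 7 of 21 cells. The Th2-like cluster of WT hosts had 53.4 CPM of Tox2 (34.9 to 78.2), and the log2 ratio was 0.90, with an interval from 0.00083 to 1.79 whose lower end lay just above 0.

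**Figure D2:**
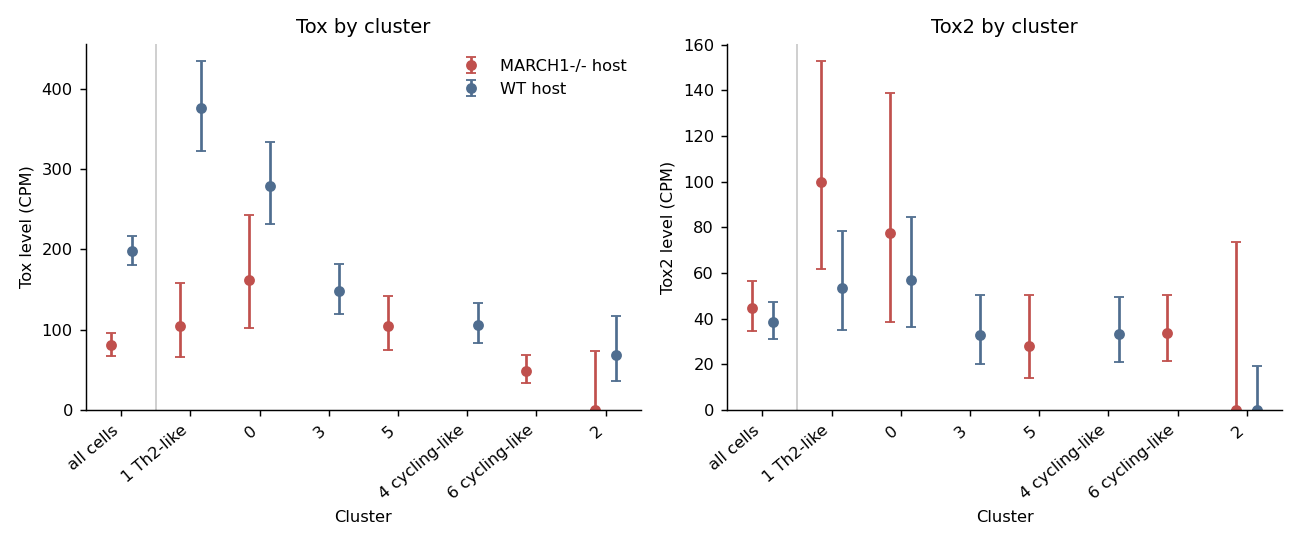
Tox (left) and Tox2 (right) levels in CPM (y axis) over all cells and in each cluster (x axis), for the MARCH1-/- host and WT host libraries. Points are summed UMIs scaled to the total and bars are exact Poisson 95% intervals. Tox is lower in the MARCH1-/- host library in the clusters that both libraries share, with intervals apart in the Th2-like one (105 against 376 CPM) and overlapping in clusters 0 and 2, and Tox2 intervals of the 2 hosts overlap in every shared cluster.

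Tox and Tox2 were found in partly the same cells. Both were detected in 24 cells, Tox alone in 46, Tox2 alone in 18 and neither in 63 cells from MARCH1-/- hosts. Both were detected in 49 cells, Tox alone in 138, Tox2 alone in 14 and neither in 135 cells from WT hosts. In the WT host library Tox2 was at 49.9 CPM in Tox-positive cells and 19.8 CPM in Tox-negative cells, a log2 ratio of 1.33 (0.58 to 2.16), and 26 of 5026 genes had a higher ratio. In the MARCH1-/- host library it was at 52.4 CPM in Tox-positive cells and 35.5 CPM in Tox-negative cells, a log2 ratio of 0.56 (-0.19 to 1.33). Tox2 UMIs were concentrated: the 5% of cells with the most held 44.8% of them in the MARCH1-/- host library and 51.1% in the WT host library, against 29.8% and 23.8% for Tox.

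The helper class of Tox-positive cells was read from UMIs of class genes, with overlap between classes allowed. Type 2 helper cells make IL-4, IL-5 and IL-13, which drive the eosinophils and mucus of allergic airways. In the MARCH1-/- host library 32 of 70 Tox-positive cells (45.7%, 33.7 to 58.1) and 24 of 81 Tox-negative cells (29.6%, 19.99 to 40.8) had a UMI of Il4, Il5 or Il13. In the WT host library these were 93 of 187 Tox-positive cells (49.7%, 42.4 to 57.1) and 37 of 149 Tox-negative cells (24.8%, 18.1 to 32.6). The intervals overlapped in the MARCH1-/- host library and did not in the WT host library, but Tox-positive cells were also deeper. In cells thinned to 1000 UMIs, with both genes read at that depth, the shares were 14.3% (1.78 to 42.8) of 14 Tox-positive and 19.0% (12.8 to 26.6) of Tox-negative cells in MARCH1-/- hosts. In WT hosts they were 31.4% (20.9 to 43.6) of 70 Tox-positive and 22.4% (17.4 to 28.0) of Tox-negative cells, so at equal depth the intervals overlapped in both libraries. Of the 4 classes described here, type 2 was the most frequent among Tox-positive cells of both libraries.

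Type 1, regulatory and follicular genes were each seen in under 20% of Tox-positive cells. Type 1 genes (Ifng or Tbx21) marked 14.3% of Tox-positive cells in MARCH1-/- hosts and 14.4% in WT hosts. Among Tox-negative cells they marked 8.64% in MARCH1-/- hosts and 19.5% in WT hosts. Foxp3, the regulatory T cell factor, marked 17.1% of Tox-positive cells in MARCH1-/- hosts and 10.2% in WT hosts, against 14.8% and 16.8% of Tox-negative cells. Follicular genes (Cxcr5, Il21 or Bcl6) marked 12.9% (6.05 to 23.0) of Tox-positive and 6.17% (2.03 to 13.8) of Tox-negative cells in MARCH1-/- hosts. In WT hosts they marked 14.4% (9.74 to 20.3) of Tox-positive and 5.37% (2.35 to 10.3) of Tox-negative cells, so the intervals overlapped in both libraries. The shares of these classes were not thinned, and Tox-positive cells were deeper. Most of the follicular UMIs were of Il21, with 20 in Tox-positive and 3 in Tox-negative cells of MARCH1-/- hosts. In WT hosts 36 Il21 UMIs were in Tox-positive and 10 in Tox-negative cells. Ifng was at 9.98 CPM in Tox-positive and 35.5 CPM in Tox-negative cells of MARCH1-/- hosts. In the same cells of WT hosts it was at 32.8 CPM and 86.8 CPM, but in each of these groups 5 cells held at least 56.0% of its UMIs. Tbx21 had 8 UMIs in Tox-positive and 5 in Tox-negative cells of MARCH1-/- hosts, a log2 ratio of 0.49 (-1.30 to 2.45). In WT hosts the log2 ratio of Tbx21 was -0.85 (-2.06 to 0.35).

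**Figure D3:**
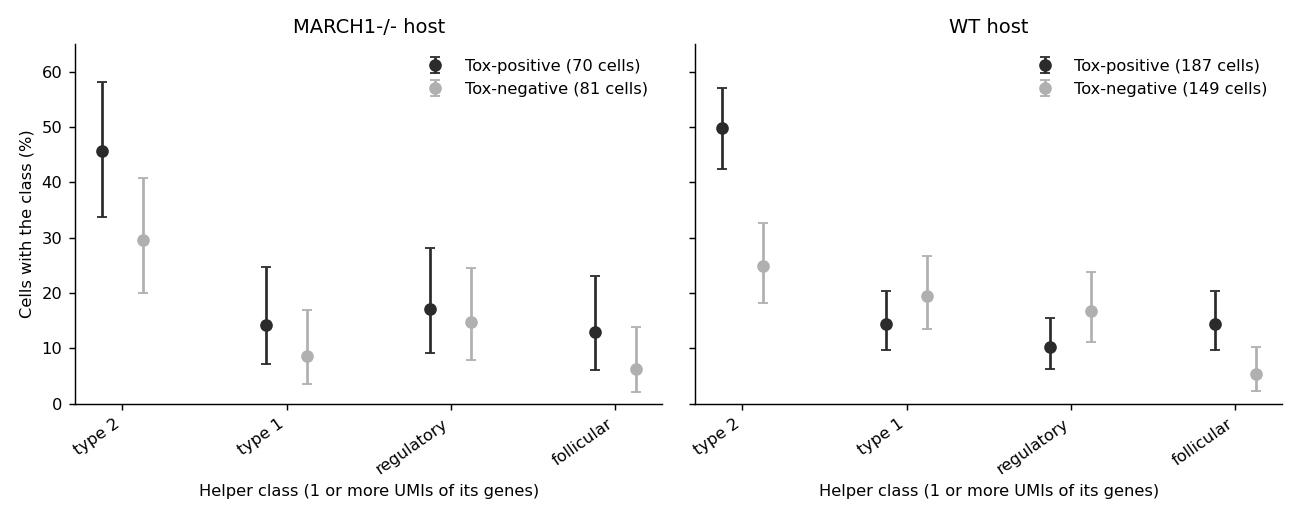
Share of cells (y axis, %) with 1 or more UMIs of the genes of 4 helper classes (x axis) in Tox-positive and Tox-negative cells of MARCH1-/- hosts (left) and WT hosts (right). Points are shares and bars exact binomial 95% intervals. Type 2 is the most frequent of the 4 classes in Tox-positive cells in both panels, at 45.7% in MARCH1-/- hosts and 49.7% in WT hosts.

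The level of type 2 cytokines in Tox-positive cells went different ways in the libraries. Summed over Il4, Il5 and Il13 it was 398 CPM in Tox-positive and 479 CPM in Tox-negative cells of MARCH1-/- hosts, a log2 ratio of -0.27 (-0.49 to -0.04). In WT hosts it was 1538 CPM in Tox-positive and 521 CPM in Tox-negative cells, a log2 ratio of 1.56 (1.42 to 1.71). Few cells held these UMIs: 5 cells had 55.2% of them in Tox-positive and 76.3% in Tox-negative cells of MARCH1-/- hosts, and 44.5% and 58.4% in the same cells of WT hosts. Without the 5% of cells with the most type 2 cytokine UMIs in each library, a setting chosen after seeing the data, the log2 ratio was 0.55 (0.18 to 0.93) in MARCH1-/- hosts and 0.63 (0.43 to 0.84) in WT hosts. Without those cells the intervals of the 2 libraries overlapped.

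By depth, the WT host library kept the direction in each bin, with 725 CPM in Tox-positive and 340 CPM in Tox-negative cells of 3000 to 6000 UMIs, and 1404 CPM and 895 CPM at 6000 to 12000 UMIs. Above 12000 UMIs its Tox-positive cells had 2172 CPM and its Tox-negative cells 310.4 CPM. In the MARCH1-/- host library the same bins gave 188 CPM and 19.5 CPM, then 641 CPM and 699 CPM, then 274 CPM and 466 CPM, with no common direction. Seen from the other side, Tox was at 88.9 CPM in cells with a type 2 cytokine UMI from MARCH1-/- hosts and 237 CPM in those from WT hosts, a log2 ratio of -1.41 (-1.84 to -1.01). In cells with none it was at 73.2 CPM in MARCH1-/- hosts and 163 CPM in WT hosts, a log2 ratio of -1.15 (-1.59 to -0.73). Among cells with a Foxp3 UMI the log2 ratio was -0.74 (-1.79 to 0.22), from 13 Tox UMIs in MARCH1-/- hosts and 33 in WT hosts.

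Tox2-positive cells were set against Tox2-negative cells in the same way. A type 2 cytokine UMI was seen in 19 of 42 Tox2-positive cells (45.2%) and 33.9% of Tox2-negative cells from MARCH1-/- hosts, with overlapping intervals. In WT hosts it was seen in 39 of 63 Tox2-positive cells (61.9%, 48.8 to 73.9) and in 91 of 273 Tox2-negative cells (33.3%, 27.8 to 39.3). Tox2-positive cells were deeper, at medians of 8962.5 against 7454 UMIs in MARCH1-/- hosts and 7785 against 5185 UMIs in WT hosts, and these shares were not thinned. The summed cytokine level was 426 CPM in Tox2-positive and 441 CPM in Tox2-negative cells of MARCH1-/- hosts. In WT hosts it was 2308 CPM in Tox2-positive and 786 CPM in Tox2-negative cells.

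Single type 2 genes were compared between Tox-positive and Tox-negative cells within each library, where a gene at least 2-fold different counts as called. Over all genes that reached 50 UMIs, 1.13% were called higher and 0.958% lower in Tox-positive cells of MARCH1-/- hosts, and 1.83% higher and 1.09% lower in those of WT hosts. Of a list of 20 type 2 genes, 13 were measured in MARCH1-/- hosts, where 2 were called higher and 0 lower, and 15 in WT hosts, where 7 were called higher and 1 lower. The list's median log2 ratio was -0.02 in MARCH1-/- hosts and 0.94 in WT hosts, beside 0.02 and 0.05 over all genes of the same libraries. Higher in WT hosts were Il4 (log2 2.01), Il13 (1.50), Il5 (1.40), Il10 (1.26), the IL-33 receptor gene Il1rl1 (1.21), Plac8 (1.74) and Calca (3.05), which encodes the neuropeptide CGRP and had 119 of its 263 UMIs in 1 Tox-positive cell. Lower was the chemokine gene Ccl1 (-1.93), with 374 of its 592 UMIs in Tox-negative cells sitting in 1 cell.

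In MARCH1-/- hosts the genes called higher were Calca (log2 3.83), with 47 of its 65 UMIs in 1 of 70 Tox-positive cells, and Cd200r1 (1.13), an inhibitory receptor. Il4 was at 92.3 CPM in Tox-positive and 54.0 CPM in Tox-negative cells there, a log2 ratio of 0.77 (0.19 to 1.38), while Il13 was at 289 CPM and 407 CPM, a ratio of -0.49 (-0.75 to -0.24). Gata3, the master factor of type 2 cells, had a log2 ratio of -0.02 (-0.26 to 0.22) in MARCH1-/- hosts and 0.94 (0.71 to 1.18) in WT hosts. Gata3 itself was at 398 CPM in MARCH1-/- hosts and 344 CPM in WT hosts over all cells.

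**Figure D4:**
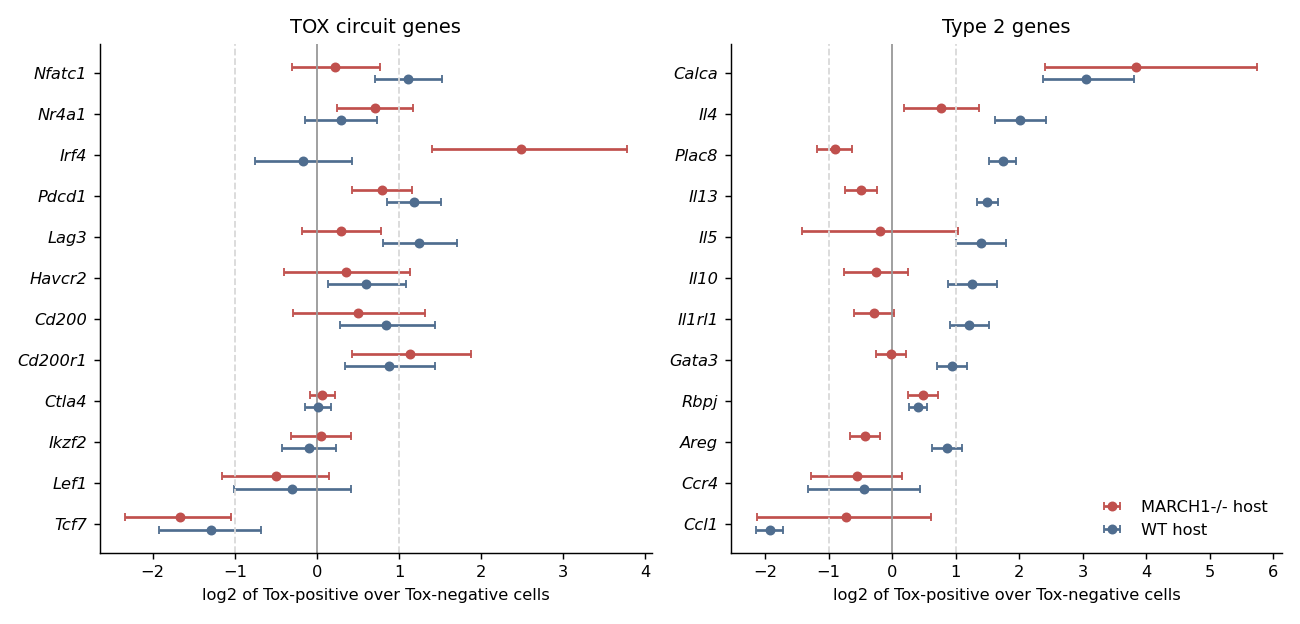
Log2 ratio of Tox-positive over Tox-negative cells (x axis) for 12 genes tied to TOX (left) and 12 type 2 genes (right), in the MARCH1-/- host and WT host libraries. Points are ratios of summed UMIs, bars exact 95% intervals and dashed lines mark 2-fold. Pdcd1 lies above 0 and Tcf7 below 0 in both libraries, while Il13 is at -0.49 in MARCH1-/- hosts and 1.50 in WT hosts.

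Around Tox, a list of 37 genes was read that holds its known inducers, partner factors and the receptors of the exhausted state. Between hosts 28 were measured, of which 0 were called higher and 1 lower in MARCH1-/- hosts, where over all genes 7.3% were called higher and 2.92% lower, so the share of the list called lower was near that of all genes. The list had a median log2 ratio of -0.11 beside 0.25 over all genes. The one called lower was Tigit, an inhibitory receptor, with 5 UMIs in cells from MARCH1-/- hosts and 80 in cells from WT hosts, a log2 ratio of -3.31 (-4.97 to -2.02). Of the inducers, Nfatc1 was at 83.7 CPM in MARCH1-/- hosts and 123 CPM in WT hosts, a log2 ratio of -0.55 (-0.87 to -0.25). The intervals of the other NFAT genes held 0, at log2 ratios of -0.14 for Nfatc2, 0.24 for Nfatc3 and -0.07 for Nfat5. Nr4a1 was at 118 CPM in MARCH1-/- hosts and 85.1 CPM in WT hosts (log2 0.47, 0.17 to 0.76), and Nr4a2 at 35.2 CPM in MARCH1-/- hosts and 18.5 CPM in WT hosts (log2 0.93, 0.33 to 1.54). Nr4a3 lay on the other side, with 25 UMIs in cells from MARCH1-/- hosts and 59 in cells from WT hosts (log2 -0.55, -1.28 to 0.15). Of the receptors, Ctla4 was at 922 CPM in MARCH1-/- hosts and 569.6 CPM in WT hosts (log2 0.70, 0.59 to 0.80). Pdcd1, which encodes PD-1, had a log2 ratio of 0.02 (-0.20 to 0.23), and Lag3 one of -0.09 (-0.38 to 0.20), with both intervals short of the size of the difference in Tox.

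Within each library these genes were compared between Tox-positive and Tox-negative cells. Of 22 measured in MARCH1-/- hosts, 2 were called higher and 1 lower, and of 27 measured in WT hosts, 3 were called higher and 1 lower. Over all genes these shares were 1.13% higher and 0.958% lower in MARCH1-/- hosts, and 1.83% higher and 1.09% lower in WT hosts. Pdcd1 was higher in Tox-positive cells of both, at 243 CPM against 141 CPM in MARCH1-/- hosts (log2 0.79, 0.43 to 1.15) and 243 CPM against 108 CPM in WT hosts (log2 1.18, 0.85 to 1.51). A Pdcd1 UMI was seen in 71.4% of Tox-positive and 46.9% of Tox-negative cells of MARCH1-/- hosts, and in 67.4% and 34.2% of those of WT hosts. Lag3 had a log2 ratio of 0.30 (-0.18 to 0.78) in MARCH1-/- hosts and 1.24 (0.81 to 1.70) in WT hosts, and Nfatc1 one of 0.23 (-0.30 to 0.76) in MARCH1-/- hosts and 1.10 (0.70 to 1.52) in WT hosts. Cd200r1 was also higher in Tox-positive cells of both, with log2 ratios of 1.13 (0.43 to 1.88) in MARCH1-/- hosts and 0.88 (0.35 to 1.44) in WT hosts. Not every receptor gene of the list rose in both libraries. Ctla4 had log2 ratios of 0.06 (-0.09 to 0.22) in MARCH1-/- hosts and 0.01 (-0.15 to 0.17) in WT hosts. For Entpd1 they were -0.39 (-1.33 to 0.54) in MARCH1-/- hosts and -0.10 (-0.65 to 0.47) in WT hosts. Tigit had 0 UMIs in Tox-positive and 5 in Tox-negative cells of MARCH1-/- hosts. In WT hosts its log2 ratio was 0.84 (0.09 to 1.65). The differences between the libraries in these ratios were not tested.

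Tcf7, which encodes TCF-1, a factor of naive, memory and stem-like T cells, was lower in Tox-positive cells of both libraries. It was at 36.2 CPM against 115 CPM in MARCH1-/- hosts (log2 -1.67, -2.34 to -1.04) and at 25.6 CPM against 62.7 CPM in WT hosts (log2 -1.29, -1.92 to -0.68). Irf4, a factor induced by T cell receptor signalling, was at 63.6 CPM in 22 of 70 Tox-positive and 11.4 CPM in 6 of 81 Tox-negative cells of MARCH1-/- hosts, a log2 ratio of 2.48 (1.40 to 3.77). In WT hosts Irf4 was at 42.0 CPM in Tox-positive and 47.3 CPM in Tox-negative cells, a log2 ratio of -0.17 (-0.75 to 0.42).

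A list of 16 follicular helper genes was read because of the tie of TOX2 to that lineage. Of 10 measured between hosts, 3 were called higher and 0 lower in MARCH1-/- hosts, where 7.3% of all genes were called higher and 2.92% lower, and the median log2 ratio was 0.51 beside 0.25 over all genes. Those called higher were Slamf6 (log2 1.65), Btla (1.36) and Sh2d1a (1.10), which encode surface receptors and, for Sh2d1a, the adaptor SAP. The defining genes of the lineage were near the floor: Cxcr5 had 2 UMIs in cells from MARCH1-/- hosts and 5 in cells from WT hosts, and Bcl6 had 5 and 9. In Tox-positive against Tox-negative cells 0 of 8 measured genes were called higher in MARCH1-/- hosts and 1 of 8, Pdcd1, in WT hosts, and Tcf7 was the gene called lower in both. Over all genes in that comparison, 1.13% were called higher and 0.958% lower in MARCH1-/- hosts, and 1.83% higher and 1.09% lower in WT hosts.

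Genes whose level varied with Tox from cell to cell were ranked by the correlation of depth-adjusted counts, over 151 cells from MARCH1-/- hosts and 336 from WT hosts and 5331 genes, taking the smaller of the 2 libraries' values. Correlations were weak, with a highest of 0.38 in MARCH1-/- hosts and 0.37 in WT hosts, and cells of a library share its preparation and depth, so they describe these libraries only. Ttc3 led with r = 0.31 in MARCH1-/- hosts and 0.29 in WT hosts. It was followed by Cd3g, a T cell receptor subunit, Rbpj, the DNA-binding partner of Notch, and Trps1, a GATA-type repressor. Plek, Ptms, the glucocorticoid receptor gene Nr3c1, the nuclear RNA Malat1, Cyfip1 and Pdcd1 completed the first 10, Pdcd1 with r = 0.24 in MARCH1-/- hosts and 0.27 in WT hosts. Leaving out the cycling-like clusters kept 8 of these 10, and rank correlation of log2(CPM + 100) kept 5.

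At the other end stood Hmgb2, a chromatin protein abundant in dividing cells, with r = -0.31 in MARCH1-/- hosts and -0.28 in WT hosts, and then Ptma, Snrpf, Ybx1 and Tmsb10. Tox2 was placed 429th among the genes most like Tox, with r = 0.08 in MARCH1-/- hosts and 0.15 in WT hosts. The first 10 genes for Tox2 shared no name with those for Tox. They were Traf7 (r = 0.31 in MARCH1-/- hosts and 0.22 in WT hosts), Ndfip1, an adaptor for ubiquitin ligases that restrains T cell activation, Fgl2, Myh9, Arhgef7, Phactr2, Eif1b, Pmepa1, Kctd12 and the NF-kappa-B subunit gene Nfkb1. The lowest were Pycard, Psme1, Klf2, Rasgrp2 and Ms4a4b, with r between -0.20 and -0.12 in the 2 libraries. Klf2 keeps T cells in circulation.

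Barcodes over the mitochondrial limit were small, with medians of 1093 UMIs and 30.5% mitochondrial UMIs in MARCH1-/- hosts and 825 UMIs and 19.5% in WT hosts, and they carried more Tox per UMI than cells. Tox was at 469 CPM (257 to 787) from 14 UMIs in 25 barcodes of MARCH1-/- hosts and at 684 CPM (512 to 895) from 53 UMIs in 72 barcodes of WT hosts. The log2 ratio between hosts was -0.54 (-1.51 to 0.33), a difference not detectable at this depth, and of 874 genes that reached 20 UMIs in these barcodes 20.1% were called lower in MARCH1-/- hosts. Over the limit against cells, Tox was 5.84-fold higher (3.1 to 10.2) in MARCH1-/- hosts and 3.45-fold higher (2.55 to 4.58) in WT hosts. Many genes were called higher in this comparison, 28.7% in MARCH1-/- hosts and 27.5% in WT hosts. Only 51 of 4262 genes had a higher ratio than Tox in MARCH1-/- hosts, and 385 of 5178 in WT hosts.

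The share of genes at least 2-fold higher over the limit climbed with gene length, as the plot by gene length shows. It was 68.0% of genes of 200 kb or more and 16.7% of genes under 10 kb in MARCH1-/- hosts, and 63.4% and 9.37% of the same classes in WT hosts. Genes of 200 kb or more had a median log2 ratio of 1.35 in MARCH1-/- hosts and 1.22 in WT hosts, and genes under 10 kb one of -0.43 in MARCH1-/- hosts and -0.73 in WT hosts. Tox, at 305 kb, had log2 ratios of 2.55 (1.63 to 3.35) in MARCH1-/- hosts and 1.79 (1.35 to 2.20) in WT hosts, above the upper quartile of its length class in both (1.74 and 1.73). Malat1, a nuclear RNA of 6.98 kb, was 3.17-fold higher over the limit in MARCH1-/- hosts and 1.96-fold higher in WT hosts. The part of gene length or of nuclear RNA in the Tox difference was not tested. Endothelial and stromal markers were at 101 CPM over the limit in MARCH1-/- hosts, from 1 of 4 genes, and 232 CPM in WT hosts, from 2 of 4, and their part was not tested. Tox2 had 0 UMIs in the 25 barcodes of MARCH1-/- hosts and 7 UMIs, or 90.4 CPM (36.3 to 186), in the 72 of WT hosts.

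**Figure D5:**
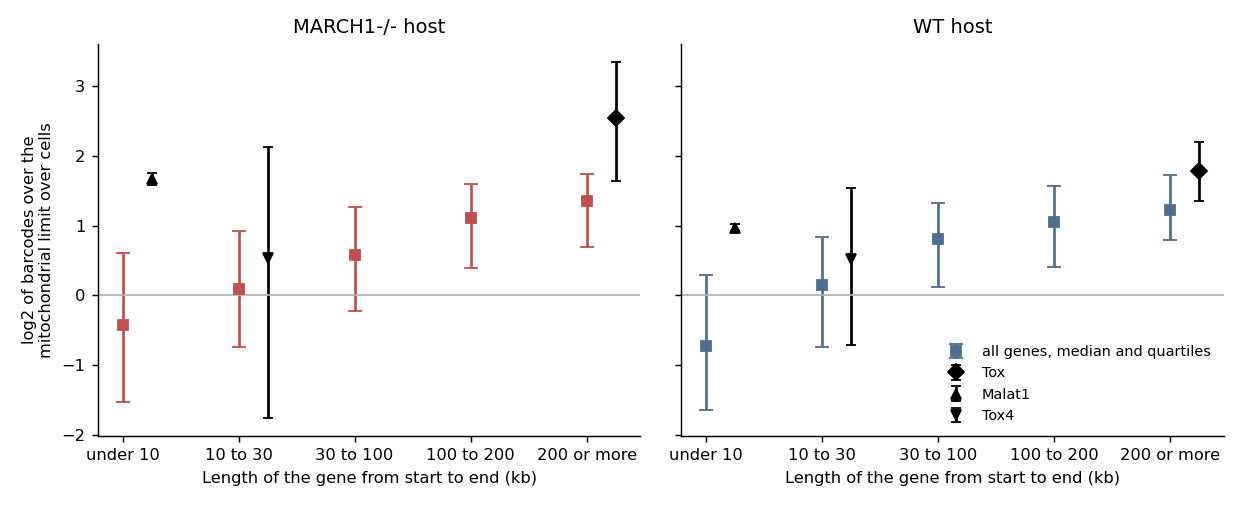
Log2 ratio of barcodes over the 10% mitochondrial limit over cells (y axis) by the length of the gene in kb (x axis), in the MARCH1-/- host library (left) and the WT host library (right). Squares and bars are the median and quartiles of all genes with at least 50 UMIs, and black symbols are Tox, Malat1 and Tox4 with exact 95% intervals. The median climbs with gene length in both libraries, and Tox lies above the quartiles of the longest class.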

How the data were processed

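Single-cell RNA was measured in 2 libraries made with the 10x 3' kit, per the labels' protocols. The deposited files hold raw UMI counts per gene and barcode, without normalization, before any call of cells. The submitters' processing notes name Cell Ranger 3.1.0 and mm10, the matrix headers version 4 of that program, and which of them made the counts is unknown. Symbols come from the deposited gene tables, positions from GENCODE M21.

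Scrublet (expected rate 0.05) called 5 of 156 barcodes (3.21%) from MARCH1-/- hosts and 16 of 352 (4.55%) from WT hosts as doublets, which were removed. Cells were clustered in scanpy 1.11.5 (2000 variable genes, 20 components, 15 neighbours, Leiden resolution 0.5). Summed counts were scaled to CPM. Intervals are exact: Poisson for levels, conditional binomial for ratios, Clopper-Pearson for shares. A share at 0 has instead the limit of 3 cells over the total. They treat UMIs as independent and are too narrow where few cells hold a gene's UMIs. A gene at 0 on one side entered the counts of called genes at 3 counts. Correlations used Pearson residuals. Ratio and ranking steps were tested on simulated data. The ratio simulation drew independent Poisson counts, so it could not check the intervals where few cells hold a gene's UMIs. The cell markers, gene lists and members were chosen with earlier results of these data known. Some helper classes are not reported here. Named genes were the TOX family, list members with at least 10 UMIs, the class genes, and the 10 most and 5 least correlated genes. Other genes named beside clusters or gene length were chosen after their values were seen. Python 3.11.15 was used with scipy 1.17.1 and matplotlib 3.10.9.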

Additional observations from a re-analysis of the deposited data

Results flagged for a closer look

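The log2 ratio of summed Il4, Il5 and Il13 in Tox-positive over Tox-negative cells was -0.27 in MARCH1-/- hosts and 1.56 in WT hosts. It drew attention because the direction was opposite in the 2 libraries. The difference was not tested, as there is 1 library per group. The MARCH1-/- host value turned positive under 4 of 5 other settings. These ranged from 0.015 (-0.27 to 0.30) at 2 or more Tox UMIs to 0.55 (0.18 to 0.93) without the 5% of cells with the most cytokine UMIs.

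Barcodes of at least 100 but under 500 UMIs, which enter no comparison, held 14 Tox UMIs in the WT host library, a level of 717 CPM (392 to 1203) against 198 CPM in cells of that library. In the MARCH1-/- host library the same barcodes held 1 Tox UMI in 1498 UMIs. This is a signal in data left out of the comparisons.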

How the results depend on the processing

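The log2 ratio of Tox between hosts kept its direction under 15 alternatives (-1.56 to -1.07), and that of Tox2 stayed within its counting interval under the same 15 (-0.05 to 0.58). Over the mitochondrial limit the host log2 ratio of Tox lay between -0.88 and -0.25 under 4 alternatives. The log2 ratio over the limit against cells lay between 2.68 and 2.97 in MARCH1-/- hosts and between 1.37 and 2.06 in WT hosts under 3 alternatives each. With cells under 3000 UMIs as the comparator, that log2 ratio was 2.89 (0.17 to 8.29) in MARCH1-/- hosts. The interval is wide because those 7 cells held 1 Tox UMI. The same comparator gave 1.37 (0.63 to 2.14) in WT hosts. Shares of cells follow depth and threshold by construction. The Tox share was 22.1% in MARCH1-/- hosts and 29.8% in WT hosts at 2000 UMIs per cell, 46.4% and 55.7% unthinned, and 16.6% and 37.8% at 2 or more UMIs. The share with a type 2 cytokine UMI in cells thinned to 1000 UMIs was 14.3% of Tox-positive and 19.0% of Tox-negative cells in MARCH1-/- hosts, and 31.4% of Tox-positive and 22.4% of Tox-negative cells in WT hosts. In WT hosts it was 59.1% of cells with 2 or more Tox UMIs. With 2 or more cytokine UMIs required it was 41.7% of Tox-positive and 17.4% of Tox-negative cells there. The type 2 cytokine log2 ratio of Tox-positive over Tox-negative cells in MARCH1-/- hosts was 0.19 with each cell weighted equally. It was 0.55 (0.18 to 0.93) without the 5% of cells with the most cytokine UMIs. In cells of 3000 to under 12000 UMIs it was 0.11 (-0.19 to 0.40), and at 2 or more Tox UMIs 0.015 (-0.27 to 0.30), with both intervals holding 0. Without the cycling-like clusters it was -0.19 (-0.43 to 0.04). In WT hosts it lay between 0.63 and 1.78. These 5 settings were chosen after seeing the data, and the cause of the change of sign was not tested. Rank correlation kept 5 of the 10 genes most like Tox. No paired analysis was possible because each group has 1 library. With 121 and 67 UMIs in cells from MARCH1-/- hosts, depth limits what can be said of Tox and Tox2 within clusters.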

Other observations

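Il17a, the cytokine of type 17 helper cells, was at 138 CPM in Tox-positive and 46.9 CPM in Tox-negative cells of MARCH1-/- hosts and at 159 CPM and 57.2 CPM in the same cells of WT hosts, where 25 of 187 Tox-positive cells had a UMI of it. In MARCH1-/- hosts 7 of 70 Tox-positive cells did, and 5 of them held 98.2% of its UMIs. Havcr2, which encodes the inhibitory receptor TIM-3, was at 42.5 CPM in MARCH1-/- hosts and 78.5 CPM in WT hosts, a log2 ratio of -0.88 (-1.32 to -0.47). In Tox-positive over Tox-negative cells its log2 ratio was 0.36 (-0.40 to 1.14) in MARCH1-/- hosts and 0.60 (0.13 to 1.08) in WT hosts.

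Predicted doublets carried Tox at 213 CPM (119 to 351) in the 5 from MARCH1-/- hosts and 392 CPM (294 to 512) in the 16 from WT hosts. In barcodes under 100 UMIs Tox was at 49.0 CPM in the MARCH1-/- host library and 76.5 CPM in the WT host library, and Tox2 at 39.8 CPM and 40.6 CPM.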
